A study of Mus musculus with 4 samples.

Results

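The kappa and lambda light chain loci hold the gene segments from which a B cell builds the light chain of its immunoglobulin. Their genes were taken as every gene on chromosome 6 (kappa) or 16 (lambda) of GRCm38 whose GENCODE M21 type is an immunoglobulin type, pseudogenes included. These were 196 of the 55359 genes counted, 184 kappa genes (178 V, 5 J and 1 C segment) and 12 lambda genes (3 V, 5 J and 4 C segments). Of the kappa V segments, 74 are annotated as pseudogenes, and a further pair annotated as light chain V genes, *Gm17472* and *Gm20730*, lies 27745.3 and 27644.3 kb from *Igkc*, far outside the kappa locus. Both were at 0 counts in every library.

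The cells were T8, a preB leukemia cell line grown from the tumor of 1 mouse of genotype Irf4-/-, and were transduced with a retrovirus coding for GFP alone (EV-RV) or for GFP and IRF4 (IRF4-RV). Both groups carry the Irf4-/- genotype, went through the same infection, and were collected 24 h later as 2 biological replicates each. P-values therefore measure the spread between replicate cultures of a single line. The paper describes the cells compared as those still viable at that time, and reports a gradual loss of IRF4-expressing cells with apoptosis. T8 was established on irradiated ST2 stromal cells with supernatant containing IL-7, and after several passages it no longer needed the ST2 cells. The protocol text of the labels names T11 where titles and tissue name T8. *Irf4* itself was counted 8070 and 7600 times in EV-RV cells and 95578 and 90693 times in IRF4-RV cells. The EV-RV vector codes for GFP alone, and the origin of the EV-RV counts was not tested. In the IRF4-RV counts, vector and endogenous reads were not separated. The libraries held between 31230223 and 37817752 counts, and a level of 3 counts, used as the floor, was worth 0.0823 to 0.0951 CPM (counts scaled to a library of fixed size after TMM).

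A light chain gene is assembled by joining a V to a J segment with the RAG recombinase, and the VJ exon is then spliced to the C exon. Kappa V segments that lie in the same orientation as the J segments are joined by deletion, those in the opposite orientation by inversion. Unrearranged segments are also transcribed, and this germline transcription precedes recombination in preB cells. IRF4 and the related IRF8 bind the kappa and lambda enhancers together with PU.1 and are together required for light chain transcription and recombination.

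The kappa J segments are shown because their shares of the counts differed between the groups. The sequences are those of the GENCODE M21 transcripts, read 5′ to 3′, with the 4 codons of the conserved Phe-Gly-X-Gly motif in capitals. The second of these codons is a glycine codon in *Igkj1*, *Igkj2*, *Igkj4* and *Igkj5* and another codon in *Igkj3*, which is known as a nonfunctional J segment.
Igkj1 (chr6:70722562-70722599, plus strand): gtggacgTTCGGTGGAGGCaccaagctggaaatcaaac
Igkj2 (chr6:70722916-70722954, plus strand): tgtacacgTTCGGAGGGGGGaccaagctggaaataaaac
Igkj3 (chr6:70723223-70723260, plus strand): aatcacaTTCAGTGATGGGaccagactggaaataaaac
Igkj4 (chr6:70723548-70723585, plus strand): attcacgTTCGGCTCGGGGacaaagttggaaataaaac
Igkj5 (chr6:70723886-70723923, plus strand): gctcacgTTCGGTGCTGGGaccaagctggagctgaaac

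The V segments that were called are shown by the last 45 bases of their coding sequence, where a joined J segment would follow. Capitals mark the last in-frame cysteine codon, the conserved cysteine that opens the third complementarity-determining region. The coordinates are those of the whole V segment. *Igkv9-124*, which did not pass the test, is added as the segment second in counts in EV-RV cells, and *Iglv2*, which was silent, as the closest relative of *Iglv1*.
Igkv14-111 (chr6:68256389-68256869, plus strand): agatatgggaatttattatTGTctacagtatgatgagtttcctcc
Igkv3-2 (chr6:70698449-70699067, plus strand): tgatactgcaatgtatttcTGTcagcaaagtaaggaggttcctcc
Igkv9-124 (chr6:67942074-67942540, minus strand): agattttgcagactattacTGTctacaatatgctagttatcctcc
Igkv12-89 (chr6:68834846-68835307, minus strand): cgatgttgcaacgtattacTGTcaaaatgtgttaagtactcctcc
Igkv1-88 (chr6:68862265-68863031, minus strand): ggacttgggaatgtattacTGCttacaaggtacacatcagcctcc
Igkv4-86 (chr6:68910411-68910973, minus strand): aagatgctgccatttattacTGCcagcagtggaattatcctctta
Iglv1 (chr16:19085017-19085500, minus strand): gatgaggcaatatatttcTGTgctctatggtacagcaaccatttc
Iglv3 (chr16:19241207-19241690, minus strand): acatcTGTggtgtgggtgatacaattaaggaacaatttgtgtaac
Iglv2 (chr16:19260401-19260859, minus strand): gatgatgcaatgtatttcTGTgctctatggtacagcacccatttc

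Most light chain segments were not measurable in T8 cells. Of the 196 genes, 147 had under 3 counts in every library, and 117 of these had no count at all. The silent genes were 139 of 178 kappa V segments, 1 of 3 lambda V segments, the 5 lambda J segments and 2 of 4 lambda C segments. Of the 49 others, 15 were abundant enough for edgeR's quasi-likelihood test. No V pseudogene was tested, and the 34 genes in between are given as counts.

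Among the 15 genes tested, 12 were higher with IRF4-RV, 2 were lower and 1, *Igkv9-124*, did not pass the FDR of 0.1. Among all 14637 genes tested, 29.7% were called, 16% as higher and 13.7% as lower. The median log2 fold change was 2.31 over the 15 and 0.00726 over all genes tested. A segment near 0 in EV-RV cells could enter the test through its IRF4-RV counts alone, so the share of the 15 is a description.

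The constant region *Igkc* (ENSMUSG00000076609, chr6:70726435-70726966, plus strand) is the part shared by the kappa transcripts that are spliced to the C exon. It took between 90.85% and 91.81% of all light chain counts in each library. It was counted 5915 and 5875 times in EV-RV cells and 15521 and 17137 times in IRF4-RV cells. The 2 groups lay far apart and the replicates close together. Its mean went from 181.7 ± 6.4 to 464.1 ± 8.77 CPM (SD over 2 libraries in each group), and the log2 change was 1.35 ± 0.0724 (SE, edgeR adjusted p = 1.95e-05). In bulk libraries, fewer cells with a transcript and less of it per cell cannot be told apart, so a rise shared by the population and a rise in some cells give the same counts.

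The 5 J segments rose together with *Igkc*, but by unequal amounts. *Igkj1*, the J segment nearest to the V segments, was counted 110 and 94 times in EV-RV cells and 218 and 297 times in IRF4-RV cells (log2 change 1.22 ± 0.182 SE, edgeR adjusted p = 0.00268). *Igkj2* went from 13 and 16 to 167 and 153 counts, a log2 change of 3.34 ± 0.275 (SE, edgeR adjusted p = 0.000145). For each of the 5, both IRF4-RV libraries lay above both EV-RV libraries. *Igkj3* went from 6 and 2 to 69 and 62 counts, with a log2 change of 3.89 ± 0.5 (SE, edgeR adjusted p = 0.00133). *Igkj4* was counted 7 and 6 times in EV-RV cells and 55 and 79 times in IRF4-RV cells, a log2 change of 3.22 ± 0.406 (SE, edgeR adjusted p = 0.00122). *Igkj5*, the J segment nearest to *Igkc*, was counted 24 and 20 times in EV-RV cells and 85 and 82 times in IRF4-RV cells, a log2 change of 1.81 ± 0.294 (SE, edgeR adjusted p = 0.00401). The log2 fold change of *Igkj1* lay close to that of *Igkc*, while those of *Igkj2*, *Igkj3* and *Igkj4* were larger by several standard errors. When single libraries were left out, *Igkj1* ranged from 1.03 to 1.36, *Igkj2* from 3.15 to 3.54 and *Igkj5* from 1.71 to 1.89. *Igkj3* ranged from 3.35 to 4.80 (the highest without EV-RV replicate 1) and *Igkj4* from 2.996 to 3.39. The J segments are 38 to 43 bases long, shorter than a usual read, so that a read counted for one also covers sequence outside it.

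**Figure D1:**
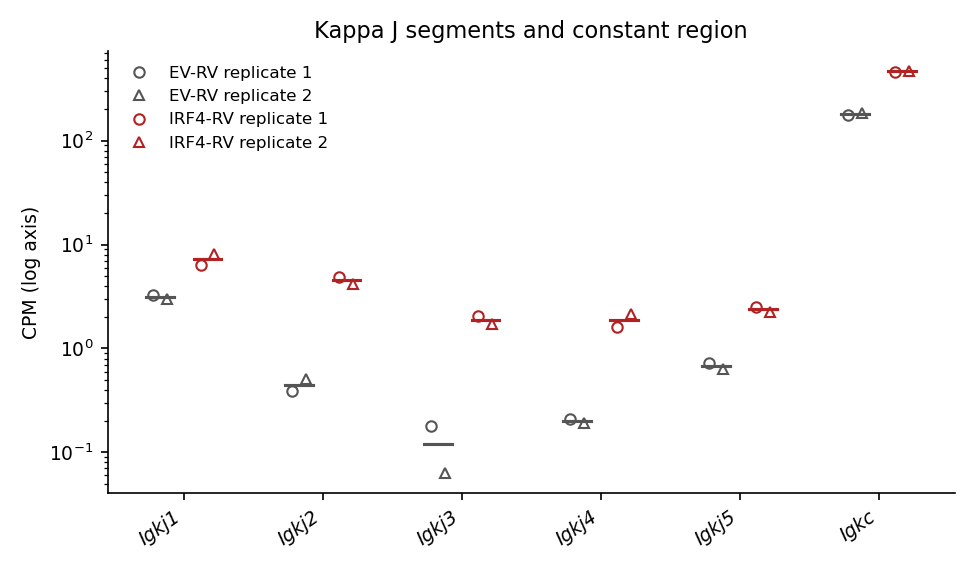
Level of each kappa J segment and of *Igkc* in each library, in CPM on a log axis. Grey symbols are EV-RV and red symbols IRF4-RV libraries, circles are replicate 1, triangles replicate 2, and bars are group means. For each of the 6 genes both IRF4-RV libraries lie above both EV-RV libraries, with the smallest gaps for *Igkj1* and *Igkc*.

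As shares of all kappa J counts, *Igkj1* fell behind. It held 68.8% (95% Wilson interval 61.2 to 75.4) and 68.1% (59.9 to 75.3) of them in the EV-RV libraries and 36.7% (32.9 to 40.7) and 44.1% (40.4 to 47.9) in the IRF4-RV libraries. The intervals cover counting error only, and those of the groups do not overlap. *Igkj3* held 3.75% and 1.45% in EV-RV cells and 11.6% and 9.21% in IRF4-RV cells. With IRF4-RV, *Igkj2* became the second largest share, at 28.1% and 22.7%, where *Igkj5* had been second with EV-RV, at 15% and 14.5%. Summed over the 5 segments, the level was 4.583 ± 0.296 CPM with EV-RV and 18.0 ± 0.669 CPM with IRF4-RV (SD, n = 2 each). With 2 libraries against 2, the exact two-sided permutation test of each such sum cannot go below p = 0.333, the value it gave for the sums of kappa V, J and C and of lambda V and C. Set against the *Igkc* counts, kappa J counts came to 2.7% and 2.35% in EV-RV cells and 3.83% and 3.93% in IRF4-RV cells.

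**Figure D2:**
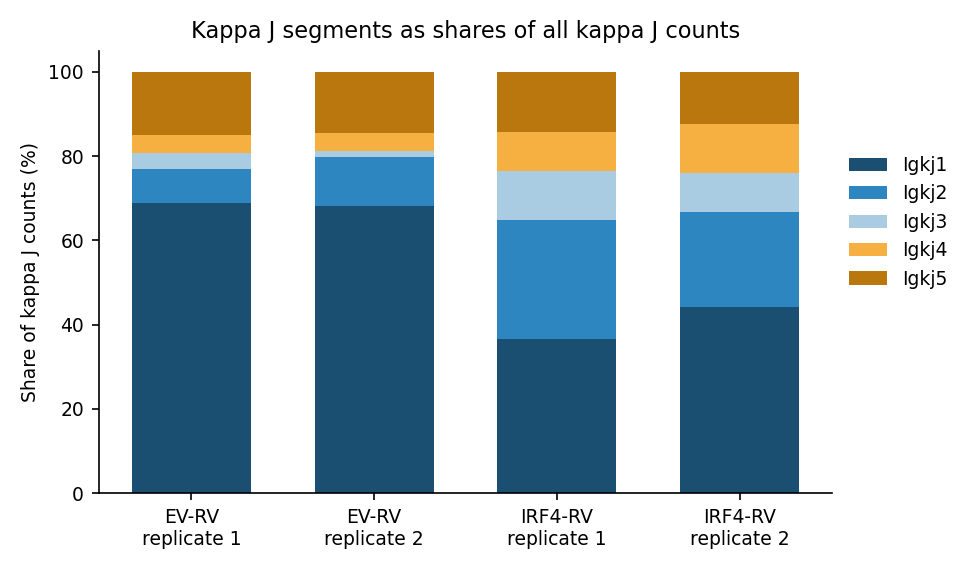
Share of each J segment among all kappa J counts, in percent, in each of the 4 libraries. The *Igkj1* share is 68.8% and 68.1% in the EV-RV libraries and 36.7% and 44.1% in the IRF4-RV libraries, and the shares of *Igkj2*, *Igkj3* and *Igkj4* are larger with IRF4-RV.

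The span of the lincRNA *Gm30211* (chr6:70719074-70740554, plus strand) covers *Igkc* and the 5 J segments, although its exons overlap none of them. It was counted 81 and 88 times in EV-RV cells and 1338 and 1345 times in IRF4-RV cells, a log2 change of 3.87 ± 0.124 (SE, edgeR adjusted p = 1.71e-06). Its change was of the size seen for *Igkj2*, *Igkj3* and *Igkj4* and not of the size seen for *Igkc*. Germline and rearranged transcripts are not separated in such counts, and whether the reads of *Gm30211* and of the J segments come from the same RNA was not tested.

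The kappa V segments showed no common direction. Their summed level was 13.07 ± 0.697 CPM with EV-RV and 11.82 ± 0.361 CPM with IRF4-RV (SD, n = 2 each), from 420 and 428 and then 392 and 440 counts. Set against the *Igkc* counts, kappa V counts therefore came to 7.1% and 7.29% in EV-RV cells and 2.53% and 2.57% in IRF4-RV cells. Within this sum, some segments lost and others gained, and 22 of the 39 segments that were not silent had a higher and 17 a lower mean level with IRF4-RV. A segment could be not silent through the counts of a single group, so these directions are a description.

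The V segment with the most counts in EV-RV cells fell. *Igkv14-111* was counted 172 and 176 times in EV-RV cells and 77 and 78 times in IRF4-RV cells (log2 change -1.28 ± 0.183 SE, edgeR adjusted p = 0.00221). Its share of kappa V counts was 41% (95% Wilson interval 36.4 to 45.7) and 41.1% (36.6 to 45.8) with EV-RV and 19.6% (16 to 23.9) and 17.7% (14.4 to 21.6) with IRF4-RV. None of its stretches of 50 bases occurs in another annotated transcript. *Igkv3-2*, which lies 27.4 kb from *Igkc*, went from 34 and 35 to 11 and 14 counts, a log2 change of -1.57 ± 0.404 (SE, edgeR adjusted p = 0.0276). This call was lost without EV-RV replicate 2 (-1.51, edgeR adjusted p = 0.124), and 21.3% of the 50-base stretches of *Igkv3-2* are shared with other transcripts. *Igkv9-124*, the segment second in EV-RV cells, was counted 100 and 103 times in EV-RV cells and 67 and 94 times in IRF4-RV cells, a log2 change of -0.46 ± 0.231 (SE, edgeR adjusted p = 0.209). The EV-RV and IRF4-RV values of *Igkv9-124* did not overlap but lay close together.

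The 3 kappa V segments called higher in the main test lie between 1815.5 and 1891.1 kb from *Igkc*, on the minus strand. *Igkv12-89* was counted 9 and 8 times in EV-RV cells and 45 and 47 times in IRF4-RV cells (log2 change 2.31 ± 0.405 SE, edgeR adjusted p = 0.00557). *Igkv1-88* went from 11 and 10 to 49 and 61 counts, a log2 change of 2.26 ± 0.38 (SE, edgeR adjusted p = 0.0046). Neither *Igkv12-89* nor *Igkv1-88* shares a 50-base stretch with another transcript. *Igkv4-86* had no count with EV-RV and 12 and 19 counts with IRF4-RV, at least 4.73-fold more when each EV-RV library is set to 3 counts (edgeR adjusted p = 0.00827). Of its 50-base stretches, 19.8% occur in another transcript. Between *Igkv1-88* and *Igkv4-86* lie 4 further V members, and of these *Gm42539* (1 and 2, then 8 and 5 counts) and *Gm42543* (0 and 2, then 3 and 2 counts) were not silent and too low for the test. The processed pseudogene *Gm43710*, no light chain gene, lies beside *Igkv4-86* and went from 6 and 6 to 34 and 29 counts (log2 change 2.26 ± 0.47 SE, edgeR adjusted p = 0.0117).

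**Figure D3:**
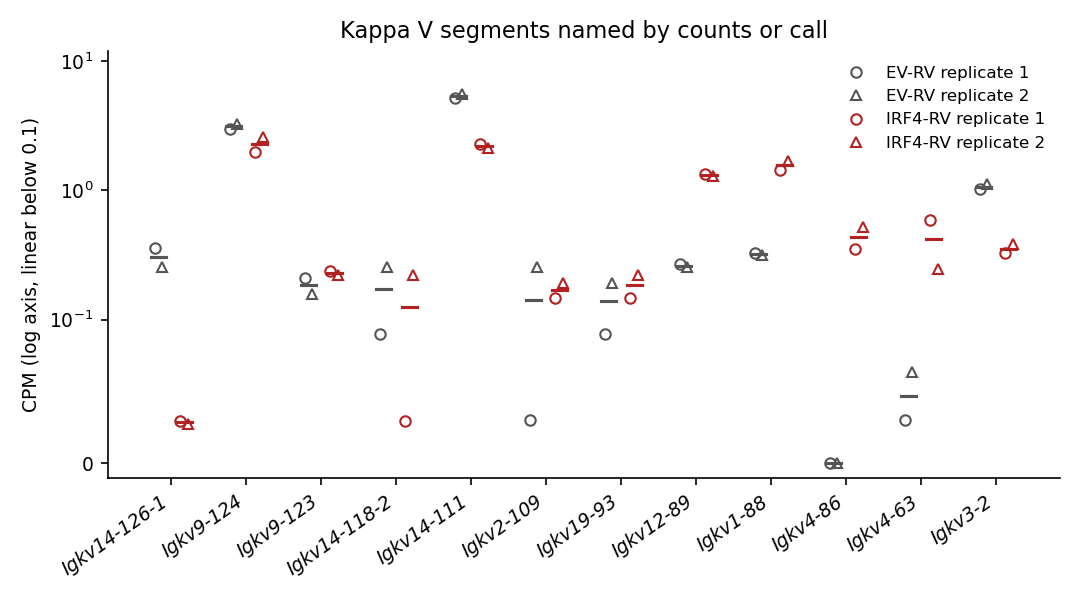
Level in CPM, on a log axis that is linear below 0.1, of the 12 kappa V segments with the most counts, in each library. Symbols are as in the plot of the J segments. *Igkv14-111* and *Igkv3-2* are lower and *Igkv12-89*, *Igkv1-88* and *Igkv4-86* higher with IRF4-RV, and the replicates of the segments with few counts spread widely.

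Most other kappa V segments stayed under the level needed for the test, with at most 20 counts in any library. *Igkv4-63* was counted 1 and 2 times in EV-RV cells and 20 and 9 times in IRF4-RV cells, a ratio of 8.93 (95% exact counting interval 2.77 to 45.8). *Igkv4-74*, named after its values were seen, went from 0 and 0 to 12 and 4 counts, at least 2.51-fold more. The pseudogene *Igkv14-126-1* went the other way, from 12 and 8 counts to 1 and 1, a ratio of 0.0923 (0.0105 to 0.38). When every gene with at least 1 count was tested, these 3 and *Iglc2* were called in addition, in the same directions. *Igkv4-63* and *Igkv4-74* lie 1348.0 and 1541.0 kb from *Igkc*, outside the interval of the segments called higher in the main test. The other segments named for their counts had at most 8 in any library: *Igkv9-123* had 7 and 5 counts in EV-RV cells and 8 and 8 in IRF4-RV cells, *Igkv19-93* had 3 and 6 and then 5 and 8, *Igkv2-109* had 1 and 8 and then 5 and 7, and the pseudogene *Igkv14-118-2* had 3 and 8 and then 1 and 8. *Igkv1-110*, which tied with *Igkv14-118-2* for the last place by total counts, had 8 and 6 and then 3 and 3.

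By V family, a grouping made after the values were seen, the *Igkv4* and *Igkv3* families stood on opposite sides. The *Igkv4* family, with 33 members of which 12 were not silent, was counted 4 and 10 times in EV-RV cells and 78 and 56 times in IRF4-RV cells, or 0.218 ± 0.139 and 1.92 ± 0.54 CPM (SD, n = 2 each). Of those 12 members, 10 had a higher mean level with IRF4-RV. Each of these 10 had under 3 counts in either EV-RV library and was not silent through IRF4-RV alone, so their direction is a description. The *Igkv3* family, near *Igkc*, was counted 57 and 50 times in EV-RV cells and 12 and 28 times in IRF4-RV cells, and the 6 members that were not silent each had a lower mean level. Some of these 6 were not silent through their EV-RV counts alone. Members of these families are close copies, with up to 67.6% of the 50-base stretches of a member (*Igkv4-78*) found in another transcript, so the split of reads among them is uncertain. Family and position move together, and they cannot be told apart here.

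The sums also went opposite ways by orientation, which was not tested. The 95 kappa V segments on the minus strand, opposite to the J segments, went from 143 and 149 to 270 and 289 counts. The 83 segments on the plus strand went from 277 and 279 to 122 and 151. Of the segments that were not silent, 17 of 21 on the minus strand had a higher mean level with IRF4-RV, and 13 of 18 on the plus strand had a lower one. Many of these reached 3 counts only in libraries of a single group, which favors that direction, so these numbers are a description. Without *Igkv14-111*, the plus-strand sum still went from 3.204 ± 0.0846 to 1.666 ± 0.478 CPM. Without the 3 segments called higher, the minus-strand sum went from 3.918 ± 0.331 to 4.642 ± 0.277 CPM (SD, n = 2 each). The segments left out were chosen by their own values, and *Igkv3-2*, also called lower, stayed in the plus-strand sum. The remainders of the 2 strands therefore cannot be compared with each other. In part of the locus the orientations alternate, with plus-strand *Igkv13* segments between minus-strand *Igkv4* segments. Of the 18 *Igkv13* segments, 2 were not silent. Elsewhere, segments of one orientation largely lie side by side. The parts of orientation, position and family in these sums were not separated.

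**Figure D4:**
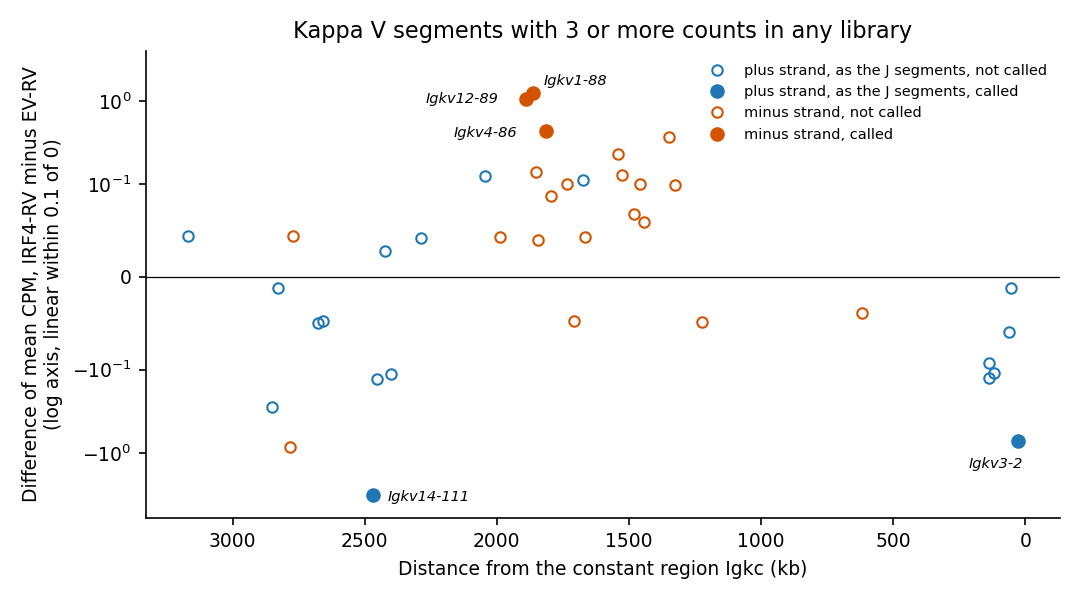
Difference between the group means in CPM, IRF4-RV minus EV-RV, for the 39 kappa V segments that were not silent, against their distance from *Igkc* in kb. Blue symbols are plus-strand and orange symbols minus-strand segments, filled symbols passed the FDR of 0.1, and the vertical axis is logarithmic beyond 0.1 and linear nearer to 0. The 3 segments called higher lie between 1815.5 and 1891.1 kb, and the segments nearest to *Igkc* lie below 0.

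The lambda V segments showed the largest fold changes of the light chain genes tested other than *Igkv4-86*, which had no EV-RV count. *Iglv1* was counted 4 and 1 times in EV-RV cells and 155 and 171 times in IRF4-RV cells. The log2 change was 5.85 ± 0.411 (SE, edgeR adjusted p = 5.99e-05), and it was 7.03 without EV-RV replicate 1 and 5.23 without EV-RV replicate 2. *Iglv3*, also known as Vx, went from 10 and 6 to 211 and 230 counts, a log2 change of 4.65 ± 0.274 (SE, edgeR adjusted p = 2.92e-05). *Iglv2* had at most 1 count, although its sequence is 96.7% identical to that of *Iglv1* and 22.2% of the 50-base stretches of *Iglv1* are shared with it. Together the lambda V segments went from 0.3206 ± 0.14 to 10.92 ± 0.166 CPM (SD, n = 2 each). They made up 3.23% and 1.61% of the V counts of both loci in EV-RV cells and 48.3% and 47.7% in IRF4-RV cells.

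The lambda J and C segments were counted far less often than the lambda V segments. The 5 lambda J segments together had a single count, in an IRF4-RV library. The exon of *Iglj2* overlaps *Iglc2* on the same strand, so reads there cannot be told apart. *Iglc3* was counted 1 and 2 times in EV-RV cells and 14 and 13 times in IRF4-RV cells, a ratio of 8.31 (95% exact counting interval 2.56 to 42.8, edgeR adjusted p = 0.0233). This call was lost without EV-RV replicate 1 (edgeR adjusted p = 0.117), and an exon of the antisense RNA *2010309G21Rik* overlaps *Iglc3* on the opposite strand. *Iglc2*, too low for the test, had 1 and 0 counts in EV-RV cells and 18 and 9 in IRF4-RV cells, a ratio of 24.9 (4.11 to 1021). *Iglc2* and *Iglc3* are 95.4% identical, so reads could have been split between them. *Iglc1* had at most 1 count, and *Iglc4* had none. Per kb of exon, *Iglv3* stood at 16.5 ± 0.162 and *Iglv1* at 11.9 ± 0.217 CPM with IRF4-RV, against 0.852 ± 0.088 for *Iglc3* and 0.636 ± 0.328 for *Iglc2* (SD, n = 2 each). In the kappa locus the order was the reverse, with *Igkc* at 872 ± 16.5 CPM per kb and the highest V segment, *Igkv9-124*, at 6.45 ± 1.21.

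**Figure D5:**
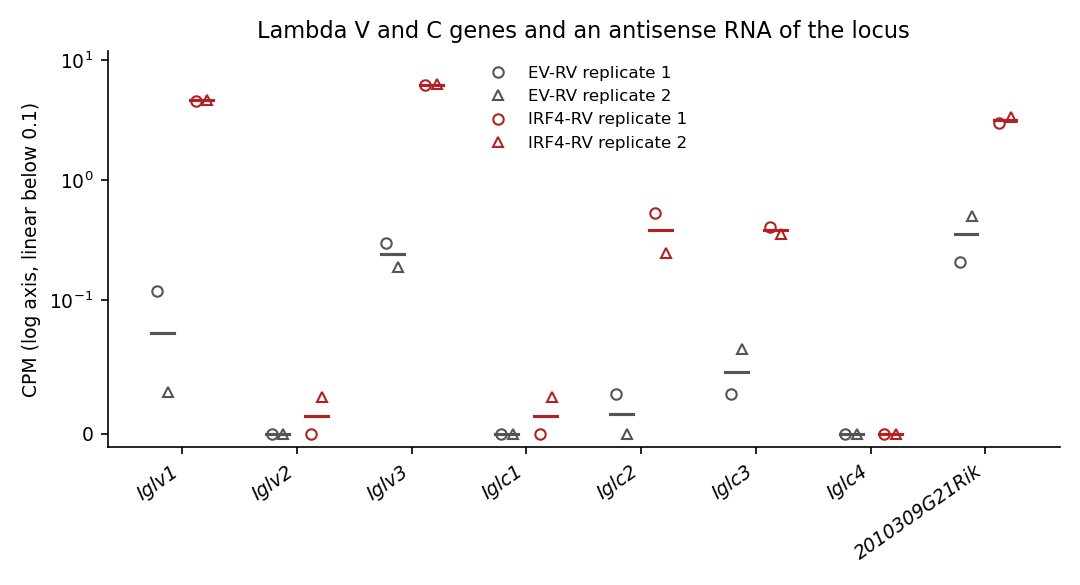
Level in CPM, on a log axis that is linear below 0.1, of the lambda V and C genes and of *2010309G21Rik* in each library. Symbols are as in the plot of the J segments. *Iglv1* and *Iglv3* reach means of 4.633 and 6.269 CPM with IRF4-RV, whereas *Iglc2* and *Iglc3* stay near 0.389 and 0.385 CPM.

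Other genes inside the lambda locus rose as well. *2010309G21Rik*, an antisense RNA on the plus strand whose span includes *Iglv1* and *Iglc3*, went from 7 and 16 to 101 and 123 counts (log2 change 3.15 ± 0.398 SE, edgeR adjusted p = 0.00124). *Gm43388* went from 2 and 1 to 15 and 18 counts, and *Gm42870* from 4 and 4 to 32 and 35. Whether counting used the strand is not given in the sources used here, so reads of *2010309G21Rik* and of *Iglc3* cannot be told apart. These 3 genes passed the FDR and were the 3 tested of 5 other genes between the first and last lambda gene. In the kappa locus proper, 4 of 37 other genes were tested, and 2 were higher (*Gm30211* and *Gm43710*). The 1 lower was the snoRNA *Gm25436* close to *Igkv14-111* (64 and 69, then 9 and 33 counts, edgeR adjusted p = 0.0377). Over all genes tested, 16% were higher and 13.7% lower. In both loci, a gene near 0 in EV-RV cells could enter the test through its IRF4-RV counts alone, so these numbers are a description.

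Per kb of exon, the order of the V segments changed between the groups. With EV-RV, *Igkv14-111* led at 14.6 ± 0.82 CPM, followed by *Igkv9-124* at 8.87 ± 0.54 and *Igkv3-2* at 2.81 ± 0.17, and every other V segment was below 1. With IRF4-RV, *Iglv3* and *Iglv1* led, followed by *Igkv9-124* and then *Igkv14-111* at 5.995 ± 0.252, which differed by less than the spread of *Igkv9-124*. *Igkv1-88* at 4.31 ± 0.446 and *Igkv12-89* at 3.87 ± 0.0789 came next and also lay within their spread of each other (SD, n = 2 each).

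The recombination genes did not move together. *Rag1* and *Rag2*, which encode the recombinase that cuts at the V and J segments, had at most 1 count in any library, so that a change could not be detected at this depth. Of the 10 other genes of a list of 12, *Dclre1c* (Artemis, which opens the cut ends) rose by 1.19 on the log2 scale (edgeR adjusted p = 0.00143) and *Lig4* (the ligase that joins them) by 0.75 (edgeR adjusted p = 0.00122). *Dntt*, the polymerase that adds bases to the ends, fell by 1.55 (edgeR adjusted p = 0.00575), and *Xrcc5* (Ku80) fell by 0.37 (edgeR adjusted p = 0.0101). The other 6 did not pass the FDR, and the median over the 10 was 0.021, against 0.00726 over all genes.

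Of 20 factors known to act at light chain enhancers, 19 were tested, and 8 were higher and 2 lower, with a median log2 fold change of 0.0729. Over all genes tested, 16% were higher and 13.7% lower, the background for each list here. Among the 8 is *Irf4*, which the vector carries, so its rise was set by the design. The other higher ones were *Mef2c* (1.31), *Foxo1* (1.10), *Ikzf3* (0.82), *Tcf4* (0.69), *Ikzf1* (0.55), *Rela* (0.24) and *Spib* (0.23), each past the edgeR FDR of 0.1. *Spi1*, which encodes PU.1, was at 37.82 ± 0.512 CPM with EV-RV and 27.77 ± 0.575 CPM with IRF4-RV (SD, n = 2 each), and *Irf8* at 230.4 ± 5.9 and 185 ± 1.77 CPM. Both fell, by 0.45 (edgeR adjusted p = 0.00854) and 0.32 (edgeR adjusted p = 0.0152) on the log2 scale. Of 7 chains that pair with the light chain or come before it, 2 were higher (*Ighm* and *Vpreb3*) and 3 were lower (the surrogate light chain genes *Igll1*, *Vpreb1* and *Vpreb2*), and *Cd79a* and *Cd79b*, the signaling chains of the receptor, had log2 fold changes of -0.01 each and did not pass the FDR. The median over these 7 was -0.0146.

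Of 10 B progenitor markers, 9 were tested, and 1 was higher (*Ighm*) and 3 were lower (*Vpreb1*, *Igll1* and *Il7r*, the last by a log2 change of -0.29, edgeR adjusted p = 0.0686), with a median of -0.239. Among the others were the B lineage factor *Ebf1* at 117 ± 13.2 CPM with EV-RV and 99.15 ± 11.5 CPM with IRF4-RV (SD, n = 2 each) and *Rag1* at or near 0. Of 7 plasma cell markers, *Prdm1* (8 and 9, then 46 and 35 counts) and *Xbp1* rose and *Sdc1* fell, and *Tnfrsf17* had at most 4 counts in any library. *Irf4*, also on this list, is carried by the vector, so its rise was set by the design. Of 6 mature B cell markers, *Ighd* and *Cd22* rose, *Cxcr5* fell, and *Fcer2a* had at most 2 counts. The 8 T and NK cell markers summed to 620 and 606 counts in EV-RV cells and 391 and 421 in IRF4-RV cells, of which *Trac* held 613, 603, 391 and 420, while *Cd3e*, *Cd8a* and *Ncr1* had at most 2. The 7 myeloid markers summed to 26 and 20 and then 28 and 33 counts, with *Lyz2* at no more than 1, and the 3 erythroid markers to 122 and 134 and then 141 and 186. The part of these cell types in the light chain values was not tested. The 5 stromal markers were at 30.4 and 59.6 CPM in sum with EV-RV and 32.2 and 147 CPM with IRF4-RV. None of them passed the FDR, and IRF4-RV replicate 2 was the library highest in them. The part of stromal cells in the light chain values was not tested either.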

How the data were processed

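Bulk RNAseq libraries of transduced T8 cells were analyzed, 2 with EV-RV and 2 with IRF4-RV, grouped by the sample labels. According to the methods and the submitters' processing notes, the authors used STAR 2.4.0j on GRCm38 and deposited whole-number counts per gene from featureCounts without normalization. The settings for strand and multiply aligned reads are not given in the sources used here. Of 55359 identifiers, 52083 were matched to GENCODE M21, which gave types, symbols, coordinates and sequences. The light chain genes and the gene lists were chosen with earlier results of these data known.

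Genes passing filterByExpr were tested across the whole table with edgeR 4.0.16 (R 4.3.3), with TMM scaling, by the quasi-likelihood test. The SE of an edgeR log2 change was derived from that test, as the absolute log2 change over the square root of its F statistic. P-values were adjusted by Benjamini-Hochberg over all genes tested, and an FDR of 0.1 was the threshold. The procedure was tested on simulated data. CPM use the TMM-scaled library sizes. Genes with under 3 counts in every library were listed as silent. Against a group at 0 counts, folds were computed with 3 counts in each of its libraries and are lower bounds. Ratios of low counts have exact conditional intervals and shares have Wilson intervals, both at 95% and covering counting error only. Sums over segments were compared with an exact two-sided permutation test. Sequence stretches of 50 bases were searched on both strands of all GENCODE M21 transcripts, and identity was computed from global alignments (Biopython 1.88) over the shorter sequence.

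Named were every C and J segment that was not silent, the 12 kappa V segments with the most counts, every lambda V segment, V segments called (up to 10 in each direction), and the lists of recombination genes, enhancer factors, chains that pair with or precede the light chain, and other genes in the loci. As first defined, the last list ran from *Gm17472* and *Gm20730* on and held 498 genes on chromosome 6, of which 98 were tested, 27 higher and 13 lower with a median log2 fold change of 0.106. It was narrowed to the kappa locus after the data were seen. Alternatives were another tool (DESeq2 1.42.0), its size factors or the library size alone in edgeR, a looser and a stricter filter, a replicate block, an FDR of 0.05, and each library left out. Promoters, recombination signals and proteins of the segments were not analysed here, and some marker genes are not reported here.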

Additional observations from a re-analysis of the deposited data

How the results depend on the processing

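The number of light chain genes called higher was 12, and between 10 and 15 under the alternatives run. DESeq2 gave 10, since it returned no adjusted p for *Igkv4-86* and *Iglc3*, and testing all genes with at least 1 count gave 15 higher and 3 lower among 79 light chain genes tested. When single libraries were left out, 11 to 12 genes were called higher and 1 to 2 lower. Without EV-RV replicate 1 the call of *Iglc3* was lost (log2 fold change 2.53, edgeR adjusted p = 0.117), and without EV-RV replicate 2 that of *Igkv3-2* (-1.51, edgeR adjusted p = 0.124). The other 146 of 148 values of the 15 named genes that were tested kept their direction and their side of the FDR. *Igkc* ranged from 1.31 to 1.39 on the log2 scale when single libraries were left out.

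For the libraries numbered 1, the deviations from the means of their groups correlated with r = 0.26 over 14637 genes, with only 2 pairs and nothing in the labels that ties the numbers to a shared culture or day. With the replicate block, 12 light chain genes were called higher and 2 lower, as without it. With library size only, all genes had a median of -0.0831 on the log2 scale in place of 0.00726, and the summed IRF4-RV levels moved by more than the spread between replicates, to 11.45 CPM for kappa V, 449.8 CPM for *Igkc* and 10.58 CPM for lambda V, with 12 genes still called higher and 2 lower.

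A count of 0 allows up to 3 counts, between 0.0823 and 0.0951 CPM in these libraries and 147 light chain genes were silent. Folds from under 10 counts carry wide intervals.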
